A study of Mus musculus with 12 samples.

Results

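Matrix proteases, the plasminogen system and their inhibitors were followed through 4 groups of RNA libraries made from mouse keratinocytes in culture, the cells that build the epidermis. The genes were chosen by name: the matrix metalloproteinases Mmp9, Mmp10, Mmp13 and Mmp14, the plasminogen activators Plau and Plat, the activator receptor Plaur, and the metalloproteinase inhibitors Timp1 and Timp3. They are 9 of the 54532 genes listed. Of these 9, 8 had a count in at least 1 of the 12 libraries, and 6 had enough counts to be tested among 13571 genes: Mmp14, Plau, Plat, Plaur, Timp1 and Timp3. Mmp9, Mmp10 and Mmp13 are given as values only.

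Matrix metalloproteinases are secreted or membrane-bound zinc enzymes that cut collagens, laminins and other proteins around the cell. Most are made as inactive precursors and are held in check by the tissue inhibitors of metalloproteinases (TIMPs), which bind the active enzyme. The plasminogen activators cut plasminogen, a blood protein, into the protease plasmin, which dissolves fibrin and can activate metalloproteinase precursors. The receptor encoded by Plaur holds urokinase, the product of Plau, at the cell surface. In skin, keratinocytes at a wound edge are known to use both systems while they move through the provisional matrix.

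All cells had the genotype WT DP-BirA(1-584), that is, they made the biotin ligase BirA joined to the amino-terminal end of desmoplakin, which anchors keratins at desmosomes. At confluence they received calcium (1.2 micromolar as labelled) to induce differentiation and 2 microgram/mL doxycycline to switch the fusion protein on. They were then wounded or left unwounded and given biotin for 16 h. The translating fraction of a sucrose gradient was passed over neutravidin, which binds biotin. RNA recovered from the resin is the cortical fraction, and RNA left after this depletion is the total fraction. Each fraction of each treatment had 3 libraries, so there were 4 groups. Cortical and total values therefore come from 2 parts of the translating fraction. Each value is a share of its own library after scaling, so a rise or fall between fractions is one of share and not of amount. The unwounded cells carried the fusion protein, doxycycline and biotin as well. The labels call the replicates biological without saying whether they came from separate dishes, so p-values measure the spread between these libraries. A lower value in such bulk RNA can come from fewer cells that make the mRNA or from less mRNA per cell, and these cannot be told apart.

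The libraries held 8980013 to 23457548 counts, and a count of 0 allows up to 3 counts, or 0.117 to 0.305 CPM (counts scaled to a common library size) per library, covering counting error only. All 12 keratinocyte markers examined were tested, and their summed level was 11731 to 12694 CPM in unwounded total, 15840 to 16045 in unwounded cortical, 18156 to 21454 in wounded total and 21422 to 21731 in wounded cortical libraries. Of the early differentiation keratins, Krt1 stayed between 0 and 1.84 CPM and Krt10 between 16.0 and 32.7 CPM. Of 10 fibroblast markers 2 were tested, and Dcn, Thy1 and Fap were at 0 in all 12 libraries. The fibroblast sum was 0.836 to 2.85 CPM in the unwounded libraries, 1.66 to 6.47 in wounded total and 1.13 to 2.36 in wounded cortical libraries. Of 9 macrophage and leukocyte markers 2 were tested, and Adgre1, Lyz2, Csf1r, Itgam and Ms4a1 were at 0. Their sum, mostly Cd68 (a lysosomal protein that is not limited to macrophages), was 19.0 to 25.1 CPM in unwounded and 33.2 to 59.9 CPM in wounded libraries. Of 6 endothelial markers 1 was tested and of 6 melanocyte markers 2 were, with sums of 0.274 to 2.77 CPM and 2.31 to 10.4 CPM. The part of these marker levels in the results was not tested. Replicate 1 of the wounded total group stood apart: 13117 genes had a count there, and 14393 to 16867 did in each other library. Of genes expected at 10 to 20 counts, 41.2% were at 0 there, against 0.607% to 24.7% in the other libraries. Results that rest on it are given with and without it.

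Promoter sequence is shown for the genes on which the results turn and for those with a match to TGANTCA. RefSeq held the 250 bases before the start for 6 of the 9 genes (build GRCm38.p6), and 5 are printed, all on the plus strand, 5′ to 3′. They lie at chr9:7502092-7502341 (Mmp10), chr9:7272264-7272513 (Mmp13), chr7:24462233-24462482 (Plaur), chr14:54431348-54431597 (Mmp14) and chrX:20869916-20870165 (Timp1). Capitals mark matches, on either strand, to TGANTCA (the core recognised by AP-1, a factor of Fos and Jun proteins), TATAAA (the TATA box) and GGGCGG (a GC box, shown as CCGCCC where it lies on the other strand). Touching GGGCGG matches run together, and overlapping ones were counted separately.
Mmp10: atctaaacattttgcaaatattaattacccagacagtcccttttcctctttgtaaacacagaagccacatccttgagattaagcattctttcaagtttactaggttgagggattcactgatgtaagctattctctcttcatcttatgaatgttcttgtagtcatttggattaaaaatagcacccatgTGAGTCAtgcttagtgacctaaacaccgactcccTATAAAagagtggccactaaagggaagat
Mmp13: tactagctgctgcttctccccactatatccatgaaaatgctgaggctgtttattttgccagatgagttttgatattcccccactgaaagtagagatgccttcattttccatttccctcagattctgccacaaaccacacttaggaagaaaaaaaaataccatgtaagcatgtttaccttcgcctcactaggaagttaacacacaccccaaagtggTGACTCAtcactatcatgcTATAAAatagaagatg
Plaur: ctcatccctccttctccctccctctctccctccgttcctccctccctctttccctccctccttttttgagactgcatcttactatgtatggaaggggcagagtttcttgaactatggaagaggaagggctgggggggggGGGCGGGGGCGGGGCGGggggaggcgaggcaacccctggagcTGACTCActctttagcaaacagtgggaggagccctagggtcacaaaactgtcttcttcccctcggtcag
Mmp14: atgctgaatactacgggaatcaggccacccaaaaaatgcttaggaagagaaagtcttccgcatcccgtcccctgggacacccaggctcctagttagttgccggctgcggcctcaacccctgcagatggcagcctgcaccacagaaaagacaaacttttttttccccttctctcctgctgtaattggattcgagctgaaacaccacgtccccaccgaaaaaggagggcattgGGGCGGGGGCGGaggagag
Timp1: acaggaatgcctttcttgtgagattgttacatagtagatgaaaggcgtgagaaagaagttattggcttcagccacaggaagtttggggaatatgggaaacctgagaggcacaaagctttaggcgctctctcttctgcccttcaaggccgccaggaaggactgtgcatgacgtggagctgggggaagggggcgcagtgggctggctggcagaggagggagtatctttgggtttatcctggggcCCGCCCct
TGANTCA stood in Mmp10, Mmp13 and Plaur, starting 63, 35 and 69 bases before the start, and 6.75% of the 32851 promoter windows of this length hold it. TATAAA stood in Mmp10 and Mmp13, 29 and 16 bases before the start, and is in 12.4% of windows. GGGCGG was found in Mmp14 (2 matches), Plaur (3), Timp1 (1) and Timp3 (1), and is in 32.7% of windows. The AP-1 motif was chosen for what is known of these genes, and the other motifs were chosen after the sequences had been seen. Such a match is a description of the sequence and not of factor binding.

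The 9 genes spanned a wide range of levels. Compared per gene length as deposited FPKM (counts scaled by library size and gene length), Timp1 was the most abundant, at 26.1 to 44.1 FPKM over the 12 libraries. Mmp14 followed at 5.21 to 9.49 FPKM and did not overlap Timp1 or any other member. Plau (0.912 to 4.21 FPKM) and Plaur (0.368 to 2.76 FPKM) overlapped each other. Timp3 (0.107 to 0.575 FPKM) and Plat (0.0791 to 0.677 FPKM) overlapped each other and, in their extremes, Plaur. Among the members, 1 inhibitor and 1 membrane protease thus stood above the plasminogen activators and their receptor in every library.

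**Figure D1:**
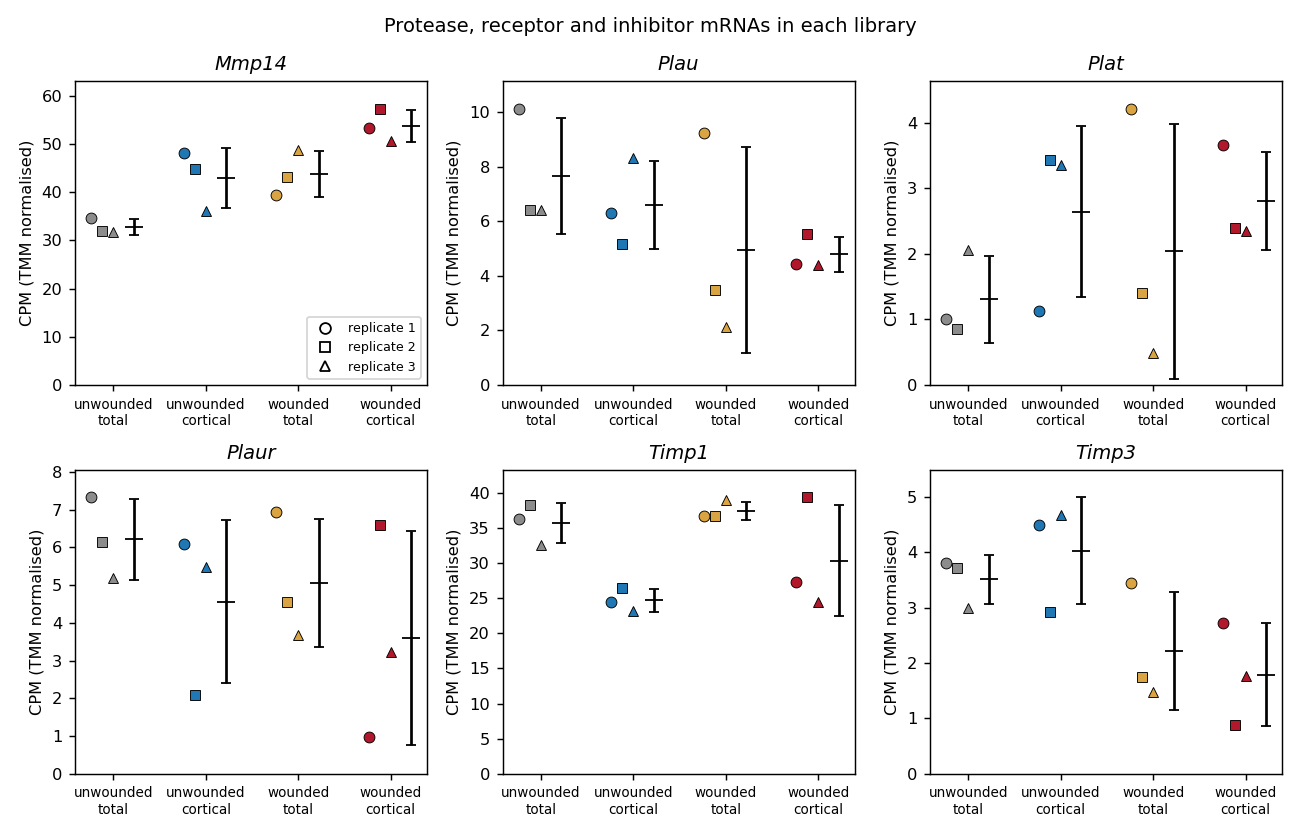
Level of each tested gene in CPM (TMM-scaled; each panel has its own axis starting at 0) in the 4 groups; symbols are the 3 libraries and bars give the mean ± SD. Mmp14 is lowest in unwounded total (31.7 to 34.6 CPM) and highest in wounded cortical libraries (50.6 to 57.3 CPM). Timp1 has its lowest group mean in unwounded cortical libraries (23.2 to 26.4 CPM), which overlap the wounded cortical ones (24.4 to 39.4 CPM).

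Mmp14 encodes the membrane-anchored MT1-MMP, which cuts fibrillar collagen at the cell surface and activates the precursor of MMP2. It was higher in the cortical than the total fraction of unwounded cells, and higher in wounded than unwounded total libraries. The gene (ENSMUSG00000000957, protein coding, build mm10) lies on chromosome 14 from 54431612 to 54445364, plus strand. Its CPM in replicates 1 to 3 was 34.6, 31.8 and 31.7 in unwounded total, 48.2, 44.7 and 36.1 in unwounded cortical, 39.4, 43.1 and 48.7 in wounded total, and 53.2, 57.3 and 50.6 in wounded cortical libraries. Unwounded total libraries were below all 9 others, and wounded cortical libraries were above all 9 others.

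Between fractions of unwounded cells Mmp14 rose from 32.7 ± 1.65 CPM (SD, n = 3) in the total to 43.0 ± 6.21 CPM (n = 3) in the cortical fraction, a log2 fold change of 0.40 (SE 0.13, edgeR quasi-likelihood test, adjusted p = 0.0443 over all genes). Between treatments it rose in the total fraction to 43.8 ± 4.70 CPM in wounded cells (0.42, SE 0.13, edgeR adjusted p = 0.0319). In wounded cells the cortical level was 53.7 ± 3.37 CPM, and the difference from the total fraction (0.30, SE 0.13, edgeR adjusted p = 0.128) did not pass, although the groups did not overlap. With scaling by library size alone, which moves the median of all genes by 0.22 in this comparison, it was 0.52 (adjusted p = 0.0131) and passed. The difference between wounded and unwounded cortical libraries (0.32, SE 0.13, edgeR adjusted p = 0.199) did not pass either, again without overlap. The 2 called differences lie close to the threshold. The cortical call in unwounded cells was lost in 13 of 24 alternative analyses, among them removal of the trend with gene length (0.28, adjusted p = 0.206). It was lost without any 1 of the unwounded total libraries, unwounded cortical replicates 1 and 2 or the wounded cortical libraries, with adjusted p-values of 0.0565 to 0.224. The wound call in total libraries was lost in 7 of 24, among them scaling by library size alone (0.33, adjusted p = 0.134). It was lost without any 1 of the unwounded total libraries or wounded total replicates 2 and 3 (adjusted p = 0.0691 to 0.156), and it was kept without wounded total replicate 1 (0.49, SE 0.13, adjusted p = 0.00537).

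The secreted metalloproteinases among the members were at or near 0. Mmp9, a gelatinase, (ENSMUSG00000017737, chromosome 2, 164940780 to 164955850) had 0 counts in all 12 libraries. Mmp13, a collagenase, (ENSMUSG00000050578, chromosome 9, 7272514 to 7283331) had 2 counts, both in unwounded total replicate 2. Mmp10, stromelysin 2, (ENSMUSG00000047562, chromosome 9, 7502352 to 7510240) had 20 counts: 17 in wounded total replicate 1, 1 in wounded total replicate 2, 2 in wounded cortical replicate 1, and 0 in all 6 unwounded libraries. The count in 1 library, the one that stands apart, thus makes up most of what was seen of Mmp10. Fitted without the filter on low counts, the wounded minus unwounded difference in total libraries had an unadjusted p of 0.0445 and an edgeR adjusted p of 0.23. Both genes lie in a group of 10 metalloproteinase genes on chromosome 9 between 7272514 and 7699585. That group held 30 counts over the 12 libraries, 10 of them outside Mmp10, and 6 of the 10 genes had no count.

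Timp1 encodes a secreted inhibitor of most soluble metalloproteinases that binds MT1-MMP only poorly. In unwounded cells it was lower in the cortical than the total fraction. The gene (ENSMUSG00000001131, chromosome X, 20870166 to 20874735, plus strand) lies within Syn1 on the opposite strand, shares 0 exon bases with it, and had 6929 counts against 393 for Syn1. Its CPM in replicates 1 to 3 was 36.3, 38.2 and 32.6 in unwounded total, 24.5, 26.4 and 23.2 in unwounded cortical, 36.7, 36.7 and 38.9 in wounded total, and 27.3, 39.4 and 24.4 in wounded cortical libraries. The unwounded fractions did not overlap, while wounded cortical replicate 2 lay above all wounded total libraries.

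Timp1 fell from 35.7 ± 2.87 CPM in unwounded total to 24.7 ± 1.63 CPM in unwounded cortical libraries (log2 fold change -0.53, SE 0.16, edgeR adjusted p = 0.0286, n = 3 each). In wounded cells the means were 37.4 ± 1.29 CPM in total and 30.4 ± 7.93 CPM in cortical libraries, and the difference (-0.31, SE 0.16, edgeR adjusted p = 0.207) did not pass. Without wounded cortical replicate 2 it passed (-0.53, adjusted p = 0.0280). Over the 24 alternatives this difference ran from -0.53 to 0.00 and passed in 2. The 2 wound differences were 0.07 (adjusted p = 0.830) in the total and 0.29 (adjusted p = 0.362) in the cortical fraction, and neither passed. The total-fraction value was -0.01 when libraries were scaled by size alone. The call in unwounded cells was lost in 8 of 24 alternatives, with a value of -0.26 (adjusted p = 0.428) once the gene length trend was removed and -0.34 (adjusted p = 0.230) with scaling by library size alone. It was also lost without unwounded total replicate 1 or 2 or any 1 of the unwounded cortical libraries (adjusted p = 0.0516 to 0.141).

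Timp3 encodes an inhibitor that binds to the extracellular matrix and also blocks several ADAM proteases. It was 3.52 ± 0.445 CPM in unwounded total, 4.03 ± 0.963 CPM in unwounded cortical, 2.22 ± 1.07 CPM in wounded total and 1.79 ± 0.925 CPM in wounded cortical libraries. In cortical libraries replicates 1 to 3 gave 4.50, 2.93 and 4.68 CPM in unwounded and 2.73, 0.881 and 1.76 CPM in wounded cells. The cortical groups did not overlap, but the difference (-1.15, SE 0.48, edgeR adjusted p = 0.212) did not pass. In total libraries the difference was -0.66 (SE 0.48, adjusted p = 0.393), and -1.13 (SE 0.50, adjusted p = 0.0995) without wounded total replicate 1. With voom quality weights and all libraries it was -1.08 (SE 0.39, limma adjusted p = 0.0291) and passed. That fit called 5272 of the 13571 genes tested in this comparison, against 2173 with edgeR. The gene (ENSMUSG00000020044, chromosome 10, 86300372 to 86349506, plus strand) shares 1733 exon bases with Syn3 on the opposite strand, and the libraries do not keep the strand. Syn3 had 75 counts in 12 libraries and Timp3 had 630.

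Set against each other per length, the inhibitor Timp1 exceeded the protease Mmp14 in every library, and by less in the cortical fraction. The ratio of their FPKM values was 7.33 ± 0.633 (SD, n = 3) in unwounded total, 3.90 ± 0.451 in unwounded cortical, 5.78 ± 0.452 in wounded total and 3.76 ± 0.741 in wounded cortical libraries. It ran from 6.90 to 8.06 and from 5.36 to 6.26 in the total libraries of unwounded and wounded cells, and from 3.42 to 4.31 and from 3.24 to 4.61 in the cortical ones. Cortical and total libraries did not overlap in either treatment, and the unwounded total libraries lay above the wounded total ones. The pair was chosen after its values had been seen, so the ratio is a description with no test. It is not a measure of inhibition, since the Timp1 product binds MT1-MMP only poorly. Mmp14 is the longer gene (5960 bases of exons against 888), and the cortical differences of both genes shrank when the length trend was removed.

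**Figure D2:**
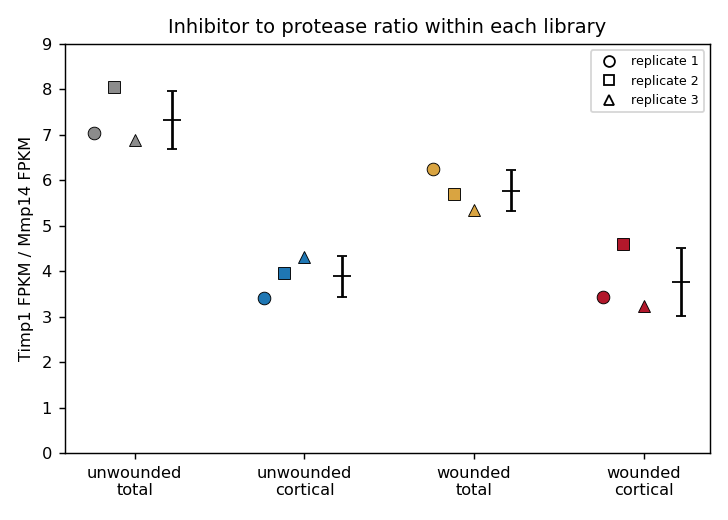
Ratio of Timp1 to Mmp14, both as deposited FPKM, in each of the 12 libraries; symbols are libraries and bars give the mean ± SD of each group. The cortical libraries lie between 3.24 and 4.61, below all total libraries (5.36 to 8.06).

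Of the plasminogen activators, Plau encodes urokinase, the form used around migrating cells. Its position is chromosome 14, 20836660 to 20843385, plus strand (ENSMUSG00000021822). Its CPM in replicates 1 to 3 was 10.1, 6.44 and 6.42 in unwounded total, 6.29, 5.18 and 8.34 in unwounded cortical, 9.26, 3.48 and 2.15 in wounded total, and 4.44, 5.53 and 4.41 in wounded cortical libraries. In wounded total libraries, replicate 1 was thus within the range of the unwounded libraries and replicates 2 and 3 were lower than every unwounded library. With all libraries the wound difference in the total fraction was -0.63 (SE 0.41, edgeR adjusted p = 0.334), from 7.66 ± 2.14 to 4.96 ± 3.78 CPM (n = 3 each), and did not pass. Without wounded total replicate 1 it was -1.44 (SE 0.36, edgeR adjusted p = 0.00239) and passed. With all libraries weighted by their quality (limma voom) it was -1.43 (adjusted p = 2.95e-04). That weighted fit called 5272 of the 13571 genes tested, against 2173 with edgeR. Whether Plau differed after wounding therefore turned on 1 library. Its other differences were -0.22 and -0.05 between fractions of unwounded and wounded cells, and -0.46 between cortical libraries, with edgeR adjusted p-values of 0.820, 0.954 and 0.636.

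Plaur (ENSMUSG00000046223, chromosome 7, 24462484 to 24475968, plus strand), the urokinase receptor, was 6.22 ± 1.07 CPM in unwounded total, 4.56 ± 2.16 CPM in unwounded cortical, 5.06 ± 1.69 CPM in wounded total and 3.60 ± 2.83 CPM in wounded cortical libraries. All groups overlapped, and its 4 differences, -0.44, -0.51, -0.30 and -0.37 (between fractions of unwounded and of wounded cells, then between treatments in total and in cortical libraries), had edgeR adjusted p-values from 0.574 to 0.788. The cortical values were widely spread: 6.10, 2.09 and 5.49 CPM in unwounded and 0.978, 6.60 and 3.23 CPM in wounded cells. Plat (ENSMUSG00000031538, chromosome 8, 22757727 to 22782844, plus strand) encodes tissue plasminogen activator, better known from blood vessels. It was 1.31 ± 0.660 CPM in unwounded total, 2.64 ± 1.30 CPM in unwounded cortical, 2.04 ± 1.94 CPM in wounded total and 2.80 ± 0.748 CPM in wounded cortical libraries. In wounded total libraries it was 4.21, 1.40 and 0.490 CPM, so that replicate 1 lay above all other libraries. Between fractions of wounded cells the difference was 0.46 (SE 0.66, edgeR adjusted p = 0.710), and 1.55 (SE 0.67, adjusted p = 0.0886) without that library. Between unwounded fractions it was 1.00 (SE 0.68, adjusted p = 0.411). After wounding it was 0.64 (adjusted p = 0.594) in total and 0.11 (adjusted p = 0.963) in cortical libraries. Without that library the total value was -0.45 (SE 0.66, adjusted p = 0.700). Mmp10, Plau, Plaur, Plat and Timp3 each had their highest wounded total value in the library that stands apart.

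**Figure D3:**
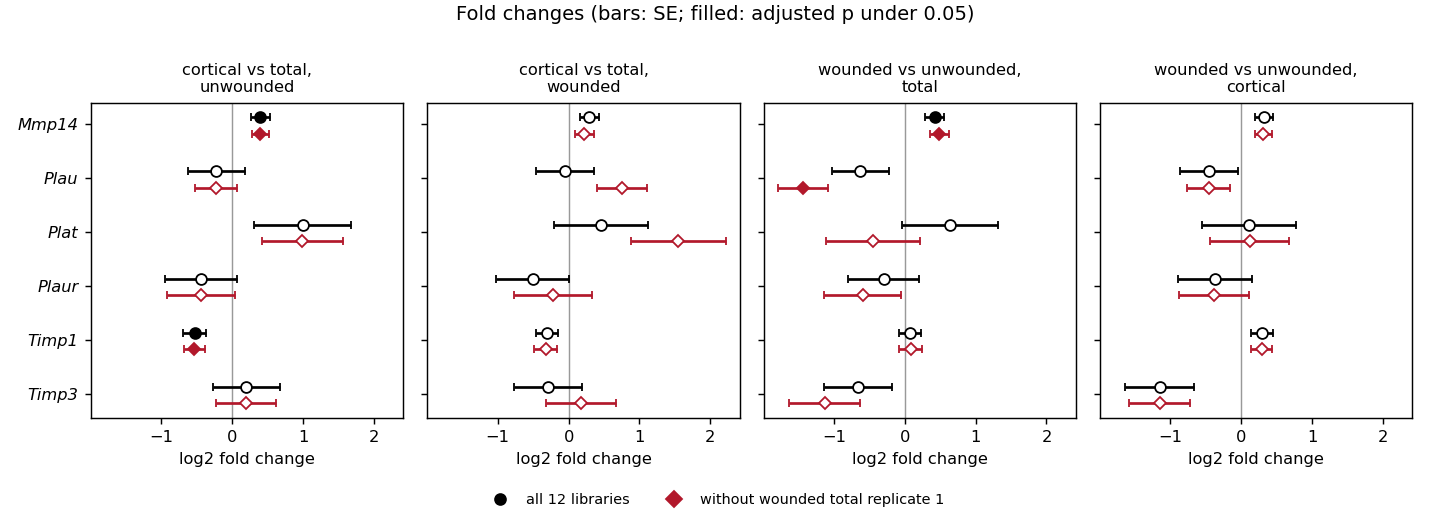
Log2 fold change of each tested gene in the 4 pairwise differences, with bars of ± 1 standard error from the edgeR fit, with all 12 libraries (black circles) and without wounded total replicate 1 (red diamonds); filled symbols had an adjusted p under 0.05. With all libraries the filled symbols are Mmp14 (0.40) and Timp1 (-0.53) between unwounded fractions and Mmp14 (0.42) between wounded and unwounded total libraries, and without that library Plau joins them between wounded and unwounded total libraries (-1.44).

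Counted over the 6 tested members with edgeR, 2 passed between fractions of unwounded cells (1 higher, 1 lower), against 14.8% of all genes tested (6.9% higher, 7.85% lower). Both of these, and no other member, had an unadjusted p under 0.05, against 26.6% of all genes. Between fractions of wounded cells 0 passed, against 15.8% of all genes, and 1, Mmp14, had an unadjusted p under 0.05, against 29% of all genes. Between wounded and unwounded cells 1 passed in the total fraction, against 16% of all genes, and it alone had an unadjusted p under 0.05, against 29.2%. In the cortical fraction 0 passed, against 3.08% of all genes, and 2, Mmp14 and Timp3, had an unadjusted p under 0.05, against 17.4%. DESeq2 called 2, 0, 1 and 0 members in the same order. Groups did not overlap for 2, 1, 1 and 2 members, against 36.2%, 29.2%, 32.1% and 26.9% of all genes tested. With 6 genes, these counts are not read as setting the members apart from the background. The 2 comparisons of fractions share no library with each other, while each shares a group with both wound comparisons.

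A cortical difference that changed with wounding was not detected for any tested member. The interaction, the cortical minus total difference of wounded cells minus that of unwounded cells, was called for 0 of 6 members against 0.125% of all genes, and 0 had an unadjusted p under 0.05, against 8.93%. DESeq2 called 0 as well. The values ran from -0.53 (SE 0.95) for Plat to 0.22 (SE 0.22) for Timp1, and Mmp14 had -0.10 (SE 0.18, edgeR adjusted p = 0.924).

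**Figure D4:**
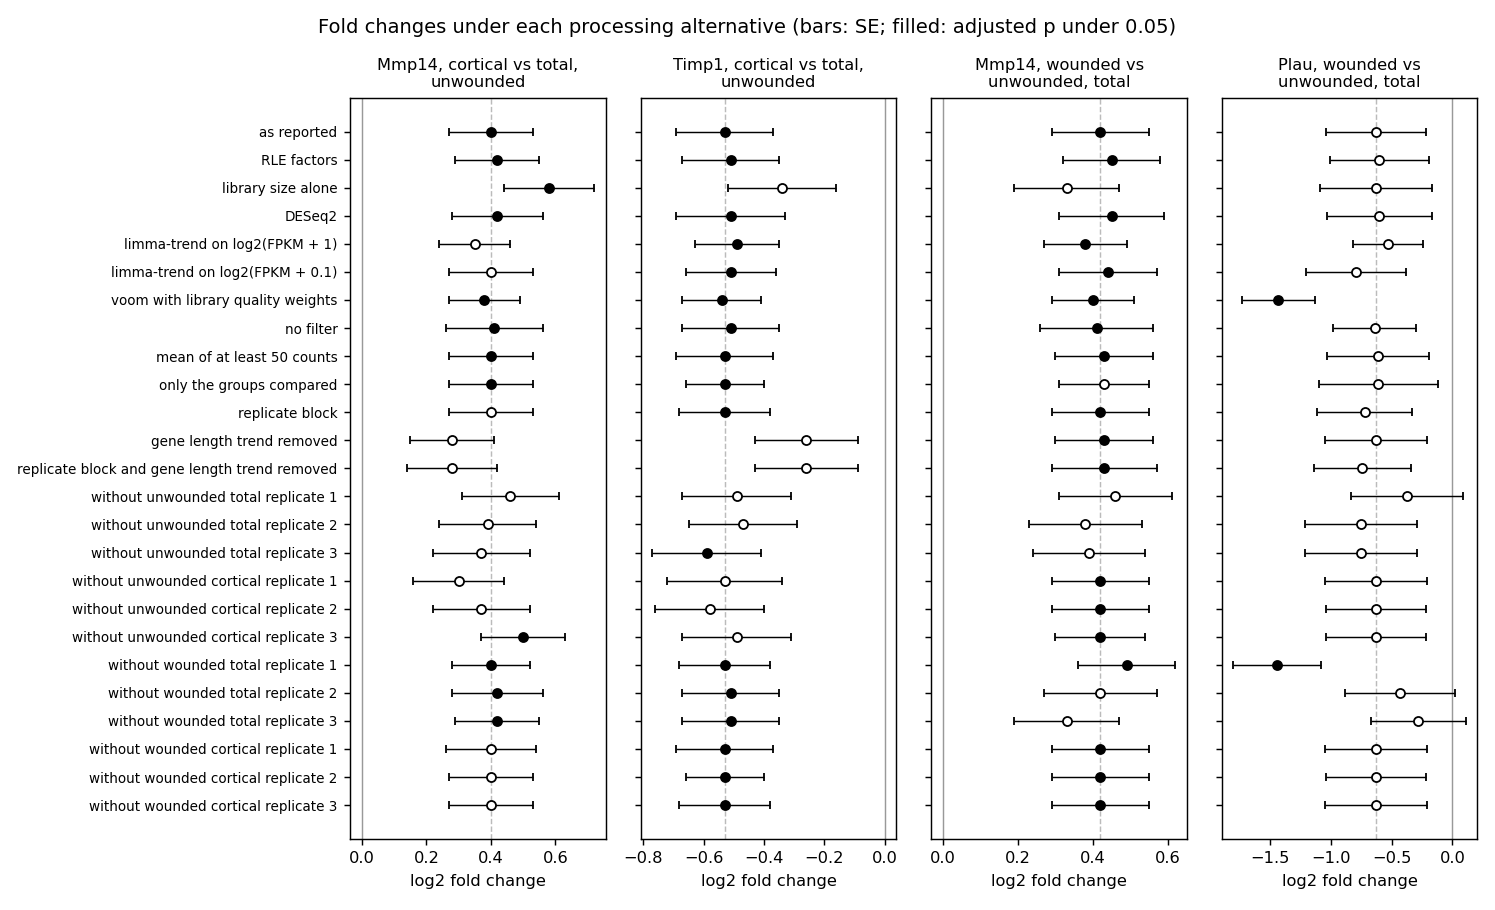
Log2 fold change (bars, ± 1 standard error; filled, adjusted p under 0.05) as reported and under each of the 24 alternatives for the 4 differences named above the panels, with a dashed line at the reported value. Mmp14 between unwounded fractions runs from 0.28 to 0.58, Timp1 there from -0.59 to -0.26, Mmp14 between wounded and unwounded total libraries from 0.33 to 0.49, and Plau there from -1.44 to -0.28.

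The wider system was read from 7 lists with 99 genes, of which 69 had a count and 56 were tested. Of the 56, 5 passed as higher and 7 as lower in the cortical fraction of unwounded cells, and 6 and 10 in that of wounded cells. Of all genes tested, 6.9% were higher and 7.85% lower in the first of these comparisons, and 7.8% and 7.98% in the second. After wounding 13 passed as higher and 1 as lower in the total fraction, against 8.66% and 7.35% of all genes. In the cortical fraction 2 and 0 passed, against 2.02% and 1.06% of all genes. For the interaction edgeR called 0, 3 had an unadjusted p under 0.05, and DESeq2 called 0 and voom 5. Over all 13571 genes tested, edgeR called 17, DESeq2 72 and voom 878, and 8.93% had an unadjusted edgeR p under 0.05. The median log2 fold changes were 0.13, 0.02, 0.27 and 0.11, against 0.00, 0.04, -0.03 and 0.02 over all genes tested. Without wounded total replicate 1, 59 genes were tested, and the counts were 9 higher and 9 lower, 7 and 14, 17 and 4, and 9 and 1. Calls over all genes were also more frequent in that fit, at 22.7%, 25.3%, 25.5% and 10.4% in either direction. For the interaction 0 were then higher and 3 lower, all 3 of them cathepsins and cystatins, against 3.65% of all genes.

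Other metalloproteinases were sparse: of 19 listed, 9 had no count in any library and 4 were tested (Mmp2, Mmp11, Mmp15 and Mmp28), and 0 passed in any comparison with edgeR. Among inhibitors and modulators, 2 of 5 were tested and both passed as lower in the cortical fraction in both treatments. The shares of all genes lower there were 7.85% in unwounded and 7.98% in wounded cells. Timp2, which inhibits MT1-MMP and also helps it to activate the MMP2 precursor, was 210 ± 9.64 CPM in unwounded total and 153 ± 2.78 CPM in unwounded cortical libraries (-0.45, edgeR adjusted p = 0.0109). In wounded cells it was 258 ± 46.5 and 172 ± 10.5 CPM (-0.59, adjusted p = 0.00187). The unwounded difference was unchanged at -0.45 with the length trend removed, and was -0.26 (adjusted p = 0.0545) with library size alone. Per length, Timp2 had a mean of 52.9 FPKM in unwounded total libraries, against 39.5 FPKM for Timp1. Bsg, which encodes basigin, known as an inducer of metalloproteinases in neighbouring cells, fell in the cortical fraction of unwounded and wounded cells (log2 fold changes -0.52 and -0.59, adjusted p = 0.00257 and 0.00107).

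Of 11 genes tested from the list of other plasminogen activation genes, 1 passed as higher and 3 as lower in the unwounded cortical fraction. In that of wounded cells 2 and 2 passed. The shares of all genes were 6.9% higher and 7.85% lower in unwounded cells, and 7.8% and 7.98% in wounded cells. The list also holds coagulation genes (F3 and Tfpi) and genes of growth factor activation or reception (Hgfac and Mst1r). Mst1r was 1 of the 2 higher in wounded cells. The lower genes included both parts of the annexin A2 complex, a docking site for plasminogen at the cell surface. S100a10 fell in unwounded and wounded cells (-0.77 and -0.79, edgeR adjusted p = 7.89e-04 and 7.87e-04), and so did Anxa2 (-0.38 and -0.60, adjusted p = 0.0240 and 0.00130). Lrp1, an endocytic receptor that clears many ligands from the cell surface, was higher in the unwounded cortical fraction (29.5 ± 1.83 against 46.3 ± 6.41 CPM, 0.65, adjusted p = 0.00600), and with the length trend removed it did not pass (0.33, adjusted p = 0.134). In wounded cells Lrp1 also passed as higher in the cortical fraction (0.51, edgeR adjusted p = 0.0247). Whether that call held with the length trend removed or a library left out was not examined. After wounding 1 of the 11 passed as higher and 1 as lower in the total fraction, against 8.66% and 7.35% of all genes. Serpinb2, an inhibitor of urokinase, fell from 6.18 ± 1.45 to 2.78 ± 0.411 CPM (-1.15, SE 0.36, adjusted p = 0.0371), and Anxa2 rose from 2306 ± 54.1 to 3084 ± 318 CPM (0.42, SE 0.11, adjusted p = 0.0144). The Serpinb2 call was lost without unwounded total replicate 1 or 2 or wounded total replicate 2 or 3 (adjusted p = 0.0698 to 0.131). The Anxa2 wound call was lost without unwounded total replicate 1 (0.0553) or wounded total replicate 2 (0.0577). Its call between unwounded fractions was lost without unwounded total replicate 1 or 3 or any 1 of the unwounded cortical libraries (0.0569 to 0.0918), and with scaling by library size alone (-0.20, adjusted p = 0.101). Mst1r, the receptor for macrophage-stimulating protein, was higher in the cortical fraction of wounded cells (5.71 ± 2.23 CPM in total and 10.4 ± 1.12 CPM in cortical libraries, 0.86, adjusted p = 0.0434). That call was lost on leaving out any 1 of 10 libraries (0.0542 to 0.196) and with the length trend removed (0.81, adjusted p = 0.0712).

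Genes of other pericellular and lysosomal proteases and of their inhibitors made up most of the listed genes' wound calls in total libraries. Of 16 pericellular serine proteases and inhibitors tested, 6 passed as higher and 0 as lower in wounded total libraries, with a median of 0.64. Of all genes tested, 8.66% passed as higher and 7.35% as lower there, with a median of -0.03. Prss8, the membrane-anchored prostasin, rose from 12.8 ± 2.10 to 23.4 ± 8.99 CPM (0.87, SE 0.22, edgeR adjusted p = 0.0112), and its call was lost without wounded total replicate 3 (0.52, adjusted p = 0.121) or unwounded total replicate 2 (0.74, adjusted p = 0.0680). Klk8, a secreted kallikrein, rose from 47.6 ± 3.52 to 85.0 ± 24.9 CPM (0.84, SE 0.16, adjusted p = 0.00120). Spint1, which inhibits matriptase and prostasin, rose from 49.6 ± 3.58 to 67.7 ± 1.86 CPM (0.45, SE 0.10, adjusted p = 0.00474). Of 9 cathepsins and cystatins tested, 6 passed as higher and 0 as lower, with a median of 0.51. The protease genes Ctsl (140 ± 5.01 to 233 ± 57.7 CPM, 0.73, adjusted p = 7.82e-04) and Ctsh (78.8 ± 2.32 to 124 ± 16.2 CPM, 0.65, adjusted p = 3.40e-04) and the inhibitor gene Cst3 (267 ± 14.7 to 482 ± 112 CPM, 0.85, adjusted p = 2.15e-04) were among them. Wounded libraries also had the higher sums of keratinocyte markers and of Cd68 given above, whose part in this was not tested.

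In the cortical fraction the wound comparison called 1 of 16 pericellular genes, Spint1 (0.39, edgeR adjusted p = 0.0410), and 1 of 9 cathepsins and cystatins, Ctsh (0.41, adjusted p = 0.0396). The share of all genes called there was 3.08%. Leaving out 1 library ended the Spint1 call for 10 of the 12 libraries (adjusted p = 0.0590 to 0.159) and the Ctsh call for 9 (0.0603 to 0.163). Between fractions, 1 of 9 cathepsins and cystatins passed as lower in the cortical fraction of unwounded cells and 4 in that of wounded cells. In both, 0 passed as higher. The shares of all genes were 7.85% and 7.98% lower and 6.9% and 7.8% higher in unwounded and wounded cells. Cstb, an intracellular cathepsin inhibitor, fell in unwounded and wounded cells (-0.71 and -1.04, adjusted p = 0.00240 and 1.86e-04), and so did Spint2, which inhibits matriptase and related proteases (-0.44 and -0.56, adjusted p = 0.00589 and 9.15e-04). In wounded cells the secreted cystatins Cst3 (482 ± 112 CPM in total and 277 ± 6.13 CPM in cortical libraries, -0.80, adjusted p = 5.48e-04) and Cst6 (283 ± 89.2 and 172 ± 23.6 CPM, -0.71, adjusted p = 0.0166) fell as well. The Cst6 call was lost without wounded total replicate 2 or 3 or wounded cortical replicate 2 (0.0665 to 0.0749). Of the 16 pericellular genes, 1 passed as higher and 1 as lower in unwounded cells, and 1 and 2 in wounded cells. In wounded cells St14, the gene of matriptase, had 0.29 (adjusted p = 0.0410) and the kallikrein Klk10 had -0.34 (adjusted p = 0.0377). Both were lost with the length trend removed (0.14 and -0.09, adjusted p = 0.378 and 0.677) and on leaving out any 1 of 9 libraries (St14, 0.0547 to 0.166) or 6 (Klk10, 0.0515 to 0.196). With library size alone Klk10 had -0.12 (adjusted p = 0.524). Of 11 ADAM and ADAMTS proteases tested, 2 and 3 passed as higher in the cortical fraction of unwounded and wounded cells and 0 as lower. The shares of all genes higher there were 6.9% and 7.8%. Adam10, a sheddase of cadherins and Notch, had 0.42 and 0.39 (adjusted p = 0.0285 and 0.0375), and Adamts1, which cuts proteoglycans, had 0.50 and 0.54 (adjusted p = 0.0455 and 0.0302). With the length trend removed neither of these 2 genes passed, at 0.35 and 0.34 for Adam10 and 0.42 and 0.47 for Adamts1. Leaving out 1 library ended these calls for 3 libraries (unwounded) and 5 (wounded) for Adam10 and for 7 and 3 for Adamts1, with adjusted p-values of 0.0529 to 0.194. Adam9, a membrane-bound sheddase, passed as higher in wounded cells (9.40 ± 2.25 CPM in total and 15.1 ± 1.72 CPM in cortical libraries, 0.69, adjusted p = 0.0348), and leaving out any 1 of 6 libraries ended the call (0.0501 to 0.161). Of 3 procollagen and astacin genes tested, 1, Bmp1, a procollagen proteinase, passed as higher in unwounded cells (0.52, adjusted p = 0.0382), and with the length trend removed it did not (0.33, adjusted p = 0.195), nor without 1 of 6 libraries (0.0553 to 0.177).

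By the correlation of log2 CPM across the 12 libraries, the genes most like each member were Ctns (r = 0.972) and Synpo (0.962) for Mmp14, Hmox2 (0.918) and Rpp25l (0.899) for Timp1, and Prodh (0.946) and Traip (0.942) for Timp3. For the plasminogen system they were Klf4 (0.934) and Sinhcaf (0.931) for Plau, Slc6a6 (0.936) and Pnisr (0.886) for Plat, and 1700003E16Rik (0.909) and Sumf2 (0.885) for Plaur. These were the highest of 9713 genes compared with each member (9714 for Plat), and the points share library depth and group. They are therefore given as a description, with no p.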

How the data were processed

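Raw counts per gene and FPKM values, in separate tables with 1 column per library, were deposited by the authors. Per the submitters' processing notes, CASAVA, HISAT2 and build mm10 were used, and the counting tool is not given in the sources used here. The libraries are poly-A selected and non-directional, per the labels' protocols. The gene coordinates and length of the deposited table are used, and 98.3% of matched genes have the same coordinates in GENCODE M21.

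Counts were filtered (filterByExpr), TMM-scaled and fitted with edgeR 4.0.16 in R 4.3.3, with 1 mean per group over all 12 libraries. For 5 contrasts the two-sided, robust quasi-likelihood F test was used, with Benjamini-Hochberg adjustment over 13571 genes at 0.05. Replicates are libraries of 1 group in the titles, and no library repeated another. Alternatives used DESeq2 1.42.0 and limma 3.58.1 (log2 of FPKM plus 1 or 0.1). The fits were tested on simulated data first. The members and lists were chosen with earlier results of these data known. From each list, up to 3 called genes per comparison with the largest change and a mean of at least 50 counts were named. The metalloproteinases tested, the genes at 0 and Lrp1 in wounded cells were named outside this rule, with their values seen. Figures used matplotlib 3.10.9.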

Additional observations from a re-analysis of the deposited data

How the results depend on the processing

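The count of members called stayed between 0 and 3 in the 24 alternatives, and every individual call was lost in some of them. The members called went from 2 to 1 between unwounded fractions with library size alone, both FPKM fits (log2 of FPKM + 1 and + 0.1) and the replicate block, and to 0 with the gene length trend removed, with or without the block. Leaving out each library gave 0 to 2. Between wounded fractions library size alone and voom quality weights gave 1 in place of 0 (0 to 1 leaving out a library). After wounding in total libraries the count of 1 became 0 with library size alone or only the groups compared and 3 with voom weights (0 to 2 leaving out a library). In the cortical wound comparison and the interaction it was 0 in every alternative run. Fitting only the groups compared was not run for the interaction, which needs all 4, and Plat had no value at a mean of at least 50 counts.

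All genes called, in the order of the 5 contrasts, were 2002, 2142, 2173, 418 and 17. Voom weights gave 3701, 4455, 5272, 1424 and 878. Only the groups compared gave 3066, 1049, 1165 and 1526 in the first 4. Length trend removal gave 1385 in the second contrast, and 1354 with the block. The cortical wound count was 228 with library size alone, 736 with DESeq2 and 270 with FPKM + 0.1. The interaction count was 72 with DESeq2, 10 and 9 with FPKM + 1 and + 0.1, and 138 with no filter. Leaving out a library gave 1085 to 3191, 1209 to 3557, 1209 to 3591, 152 to 1459 and 5 to 514. In each of the 5 ranges the highest value came without wounded total replicate 1. Library size alone moved the median of all genes by 0.19 and 0.22 in the fraction comparisons, and their calls split 1641 higher to 488 lower and 2245 to 530, against 936 to 1066 and 1059 to 1083. In the wound comparisons the splits became 717 to 1104 and 121 to 107, against 1175 to 998 and 274 to 144.

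Changes of sign occurred only where no call was made. Timp1 after wounding in total libraries was -0.01 with library size alone. Timp3 between unwounded fractions was -0.02 with the block and length trend removed, and between wounded fractions 0.14 with voom weights. Plau between wounded fractions (reported as -0.05) was 0.08 with library size alone, 0.07 and 0.17 with FPKM + 1 and + 0.1, 0.53 with voom weights, 0.10 with the block, 0.05 with length trend removal and 0.22 with both. The Plat interaction was 0.57 with voom weights. Leaving out each library, Plau ran from -0.42 to 0.06 and from -0.41 to 0.76 between unwounded and wounded fractions and from -0.21 to 0.99 for the interaction. Plat ran from 0.00 to 1.55 between wounded fractions, from -0.45 to 1.12 and from -0.27 to 0.36 after wounding in total and cortical libraries, and from -1.01 to 0.56 for the interaction. Plaur ran from -1.13 to 0.09 after wounding in cortical libraries and from -0.83 to 0.39 for the interaction. Timp3 between wounded fractions ran from -0.73 to 0.17, and the Timp1 interaction from 0.00 to 0.36. The cause was not tested.

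Same-numbered libraries deviated together little (correlation -0.0508 to 0.219 over 18 pairs, 2 over 0.1). Those 2 pairs were unwounded with wounded total libraries, replicate 1 (0.15) and replicate 2 (0.219). A library correlated best with its own number in 7 of 36 cases. The numbers were therefore not taken to pair the samples, although the labels do not say whether same-numbered libraries share a dish. With the replicate block the Mmp14 difference between unwounded fractions had an adjusted p of 0.0596, and the members called were then 1. Among the other genes named, the block also moved past 0.05 the adjusted p of Adamts1 (0.0536) and Bmp1 (0.0511) between unwounded fractions, Adam9 (0.0511) and Klk10 (0.0520) between wounded fractions, Serpinb2 (0.0536) after wounding in total and Spint1 (0.0563) in cortical libraries.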
